A study of Mus musculus with 8 samples.

Results

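Star strand miRNAs are the 115 mouse miRNAs on the array whose names end in an asterisk, out of 611 mouse miRNAs in all. They were taken by name alone from the scanner files of all 8 arrays. Each was set beside its partner, the strand of the same hairpin that carries the name without the asterisk. A partner was on the array for 113 of the 115, and miR-199b* and miR-297a* had none. The arrays held total RNA from tissue cut out of the mammary glands of female mice of the FVB/n strain at 5 weeks of age. All the mice carried a β-actin-GFP reporter, which makes the ductal tree visible under a fluorescence microscope, and the labels give no other treatment than anaesthesia. TEBs, the growing tips of the pubertal ducts, were on 3 arrays, mature ducts on 2 and distal stroma on 3. The labels do not say whether the arrays of a tissue came from separate animals or from pools, so the p-values measure the spread between these samples, which may be technical.

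A miRNA is cut from a hairpin RNA by Drosha and then Dicer, which leaves a short duplex. As a rule, the strand that is loaded into an Argonaute protein guides silencing, and the other strand, marked with an asterisk in older names, is mostly degraded. Some hairpins yield usable amounts of both strands, and the favoured strand can change between tissues. The bases at the 5′ end known as the seed (bases 2 to 8) largely decide which transcripts a strand can pair with, so that the strands of a hairpin have different targets.

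The sequences of the star strands on which the results turn are shown here so that their seeds and base composition can be compared. RefSeq (build GRCm38.p6) held the sequence of 20 of the 22 star strands that were detected on any array. The array files give names without sequences, and the arm that each older name refers to was taken from the naming history of these miRNAs. Seeds are in capitals and each strand runs from 5′ to 3′.
let-7b*: cUAUACAAccuacugccuuccc
let-7d*: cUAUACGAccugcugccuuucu
miR-130b*: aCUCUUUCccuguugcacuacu
miR-18a*: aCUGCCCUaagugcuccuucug
miR-299*: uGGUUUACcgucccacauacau
miR-29c*: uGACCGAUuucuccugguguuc
miR-483*: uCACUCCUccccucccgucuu
miR-485*: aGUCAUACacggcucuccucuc
miR-877*: uGUCCUCUucucccuccuccca
miR-135a*: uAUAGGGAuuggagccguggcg
miR-17*: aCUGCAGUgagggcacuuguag
miR-674*: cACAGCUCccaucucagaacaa
miR-140*: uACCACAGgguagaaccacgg
miR-30a*: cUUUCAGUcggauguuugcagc
miR-30e*: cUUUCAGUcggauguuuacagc

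The first 9 strands of that list were lower in TEBs than in stroma by the tests given further on. They are rich in pyrimidines, with C and U making up 63.6% to 90.9% of their bases (median 72.7%). The other 11 detected star strands with a sequence held 36.4% to 72.7% (median 54.5%). The strand miR-378*, also lower in TEBs than in stroma, had no sequence here and is in neither set. Across the 1674 different mature mouse sequences in the RefSeq table the median was 50%, and 22.9% of them had at least 63.6%. The strands with the most pyrimidines, miR-877* and miR-483*, have partners poor in them, with 20% and 4.55% of bases C or U.
miR-483: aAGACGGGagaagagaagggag
miR-877: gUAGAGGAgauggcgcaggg

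Few star strands share a seed. The strands miR-30a* and miR-30e* have the same seed and differ at 1 of 22 bases. The seed of let-7b* is also that of let-7f*, and these strands differ at 2 of 22 bases, while let-7b* and let-7d* differ at 4. Probes for strands this close may take signal from each other, and cross-hybridisation was not tested.

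Several of these strands come from within known genes or clusters, by the coordinates of GRCm38.p6. The strand miR-483* maps to chr7:142654932-142654952 on the minus strand, within the bounds of Igf2, a growth factor gene. The strand miR-877* maps to chr17:35960731-35960752 on the minus strand, within Abcf1. The hairpins of miR-140* and miR-30e* lie within the bounds of Wwp2 and Nfyc. The strands miR-299* (chr12:109710644-109710665) and miR-485* (chr12:109734946-109734967) lie on the plus strand in the imprinted Dlk1-Dio3 region. The strands miR-17* (chr14:115043721-115043742) and miR-18a* (chr14:115043908-115043929) lie on the plus strand in the miR-17-92 cluster, which is known to promote cell growth. The strand miR-135a* maps to chr9:106154179-106154200 on the plus strand, within the bounds of Glyctk and D030055H07Rik.

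Signals are total intensities per miRNA in the scanner's units with background subtracted, so that weak ones can be negative. Each array was scaled to the 75th percentile of the 108 mouse miRNAs detected on all 8 arrays, with factors of 0.75 to 1.36, and the results are called scaled units. Before scaling the mouse miRNAs of an array summed to 54239 to 88828 units. From 23.2% to 27.7% of the mouse miRNAs were flagged detected per array. The labelled tissues were checked with marker miRNAs. Of 10 epithelial markers, the TEB and duct arrays each detected the same 8 and no stroma array detected any, and their summed signal was 2059 to 2391 scaled units in TEBs and ducts against 2.71 to 16.6 in stroma. Of the 5 fibroblast markers on the array, 4 were detected on every array of each tissue, with summed signals of 2467 to 2964 scaled units in stroma and 3160 to 3779 in TEBs and ducts. The endothelial markers summed to 1315 to 1650 scaled units in TEBs, 1927 and 2061 in ducts and 2765 to 3863 in stroma. The 5 leukocyte markers summed to 296 to 450, 361 and 384, and 562.7 to 679.1 in the same order of tissues. The 3 red cell markers summed to 1385 to 1923, 2617 and 3320, and 2018 to 3622, and the 4 muscle markers to no more than 179 on any array. Markers of other cells were therefore measured in the epithelial fractions, and their part in the results was not tested.

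Most star strands gave no detectable signal in any of the tissues. The scanner software flagged 22 of the 115 as detected on at least 1 array, which is 19.1%, against 36.5% of the other mouse miRNAs on the array. On all 8 arrays there were 6 star strands (5.22%) and 102 others (20.6%). Each array detected 12 to 17 star strands, and star strands held 1.84% to 3.19% of the summed positive signal. In that share miR-199b* weighed most, at 906 to 1534 scaled units, while no other star strand rose above 128. The other 93 star strands were flagged on no array, and their scaled signals ran from -35.5 to 27.5 units, a range that overlaps those of detected star strands. For these the arrays show only that no signal was detectable.

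**Figure D1:**
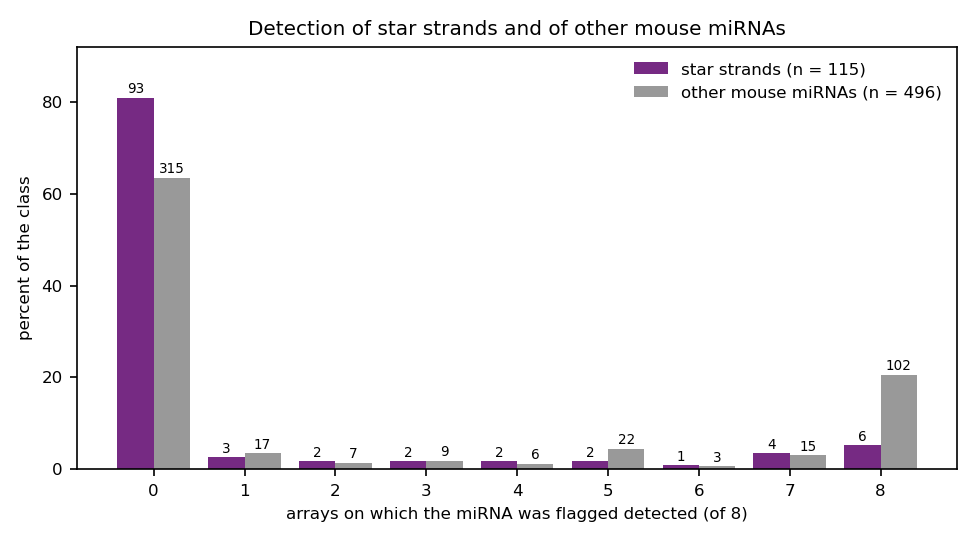
Share of star strands (purple, 115) and of the other mouse miRNAs (grey) by the number of arrays, of 8, on which they were flagged detected, with the number of miRNAs above each bar. Of the star strands 93 were detected on no array and 6 on all 8, against 315 and 102 of the others.

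Many star strands went undetected although their partner was present everywhere. Of the 92 undetected star strands with a partner, 35 had a partner detected on all 8 arrays, 17 a partner detected on 1 to 7 arrays, and 40 a partner detected on none. The brightest such partner was miR-21, an abundant miRNA often raised in tumours, with a median of 5287 scaled units, while miR-21* stayed between -11.6 and -5.56. For miR-22 the median was 4192 units and miR-22* lay between -12.1 and 2.38. For let-7c it was 5121 units, with let-7c-1* between 2.75 and 27.5. The level of a probe cannot be set against that of another probe, so these values say which strand was detected and not how the strands compare in amount.

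By hairpin family, detection was uneven. Of the 7 star strands of the let-7 and miR-98 family, 4 were detected on some array, as were 3 of 5 in the miR-30 family. Of the 8 star strands of the miR-17-92 cluster and its paralogs, 2 were detected, and 2 of the 12 assigned by name to the Dlk1-Dio3 region. The list of names for that region did not hold miR-300*, which was detected on no array. None of the 4 miR-200 family star strands was detected, although the partner of each was detected in the epithelial fractions, where this family keeps cells epithelial. The same held for miR-183* and for miR-31*, whose partner miR-31 was detected on the 3 TEB arrays alone. None of the 5 star strands of the miR-15, miR-16 and miR-322 family and none of the 3 of the miR-10 and miR-196 family was detected, with every partner detected somewhere.

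The reverse also occurred. Of the 21 detected star strands with a partner, 9 had a partner detected on more arrays and 3 on as many. In 2, miR-130b* and miR-877*, the partner was detected on fewer arrays, and in 7 on none. These 7 were miR-135a*, miR-17*, miR-191*, miR-299*, miR-483*, miR-485* and miR-674*. The partner probe of miR-17* gave negative scaled signals on all 8 arrays, from -30.9 to -7.53. That of miR-674* did the same, from -34.7 to -9.66. The arrays do not tell whether such partners are absent from the tissue or poorly caught by their probes. The paper also measured some miRNAs by RT-PCR, and it reports expression of miR-17 in TEBs and ducts. Those RT-PCR values were not used here.

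A star strand was tested between tissues when some tissue had it detected on all of its arrays. This held for 16 of the 115 (13.9%), and for 151 of the other mouse miRNAs (30.4%). A strand that passed through 1 tissue alone had to differ somewhat, so the counts over these 16 describe them and do not speak for the rest. Those that did so were miR-135a* and miR-30e* through TEBs, miR-130b* through ducts and miR-29c* through stroma. The strands let-7b*, let-7d*, miR-877*, miR-18a* and miR-485* passed through ducts and stroma but not through TEBs. That entry favours low TEB signals, so their differences from TEBs are a description as well. Likewise miR-378* passed through TEBs and stroma but not through ducts, so its difference between ducts and stroma is a description. Differences are given as log2 values from a limma fit to the 8 arrays with scaled signals under 1 set to 1, and the p-values were adjusted over all 167 mouse miRNAs tested. In tissue pieces like these, fewer cells of a kind and less RNA per cell cannot be told apart.

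**Figure D2:**
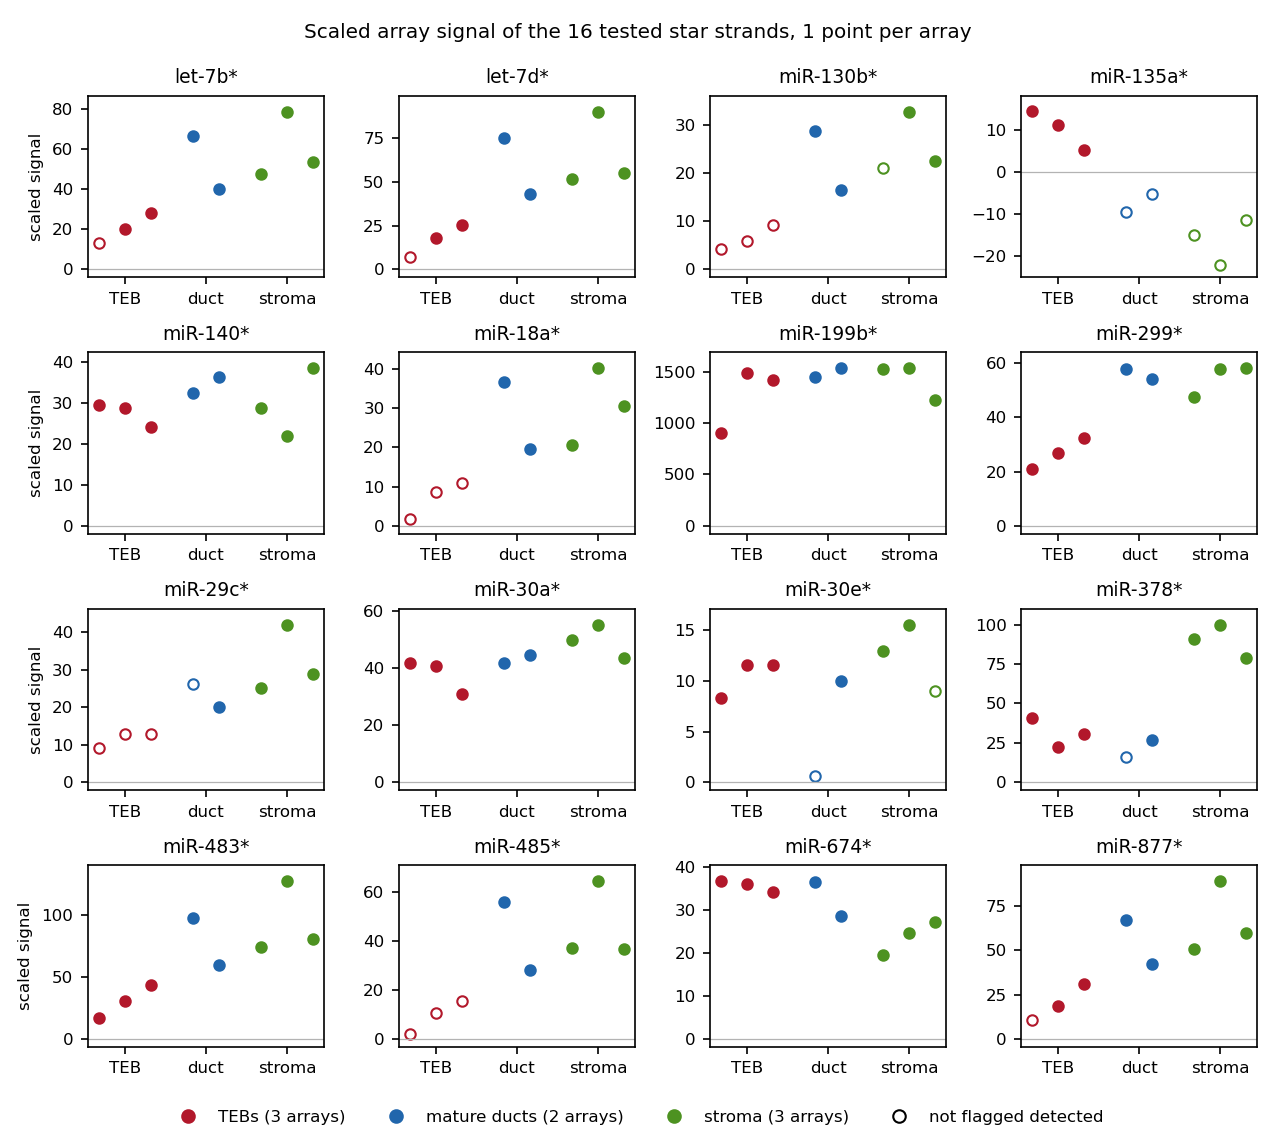
Scaled signal of the 16 tested star strands on each array, with TEBs in red (3 arrays), ducts in blue (2) and stroma in green (3), open circles where the strand was not flagged detected, and a grey line at 0. The y axis is linear in scaled units and differs between panels. In 9 panels of like shape, among them let-7b*, miR-483* and miR-877*, the TEB points lie below all the others, while miR-378* is high in stroma alone and miR-135a* is above 0 in TEBs alone.

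The star strand of miR-378 marked the stroma. The partner, miR-378, is known for roles in fat cells and energy metabolism. Stroma gave 91.0, 99.9 and 78.6 scaled units of miR-378*, TEBs 40.5, 22.5 and 30.5, and ducts 16 and 26.9. Every stroma array lay above every epithelial one, and TEBs and ducts overlapped. On the log2 scale the difference of TEBs from stroma was -1.56 for miR-378* (2.95-fold, SE 0.278, adjusted p 0.00355), and that of ducts from stroma was -2.11 (4.31-fold, SE 0.310, adjusted p 0.00377). The TEB and duct means differed by 0.55, which did not pass (adjusted p 0.209). The partner moved with it. Stroma gave 254, 262 and 247 scaled units of miR-378, TEBs 113, 59.0 and 78.4, and ducts 35.7 and 74.3. Its log2 differences were -1.66 for TEBs (adjusted p 0.00541) and -2.30 for ducts (adjusted p 0.00483) against stroma. Among the 10 hairpins whose ratios are given further on, the log2 ratio of miR-378* to miR-378 differed by 0.09 between TEBs and stroma (SE 0.138) and by 0.19 between ducts and stroma (SE 0.154), neither past the threshold (adjusted p 0.579 and 0.518). Within rows of the slide, which each held all 3 tissues, the difference of miR-378* from stroma was -1.59 and -1.54 in TEBs and -2.51 and -1.72 in ducts.

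The strand miR-135a* was detected on every TEB array and on no other. TEBs gave 14.3, 11.1 and 5.17 scaled units, ducts -9.50 and -5.38, and stroma -15.0, -22.1 and -11.4. Its partner miR-135a was detected on no array, with signals from -4.40 to 5.36. With duct and stroma values set to 1, the log2 difference was 3.23 against each (adjusted p 0.00411 and 0.000477 by limma), but that size rests on the floor, and since the strand entered the test through TEBs alone its calls are a description. A lower bound was taken against the weakest detected signal of each duct or stroma array, or the strand's own signal there where that was higher, as a ratio of the means of log2 values, and it put TEBs at least 1.70-fold above ducts and at least 1.25-fold above stroma. With the floor at the weakest detected signal of each array neither call remained. In ducts and stroma all 5 values sat at the floor, so that the strand's own spread came from the TEB arrays alone. For the standard error limma combines that spread with the spread of the other miRNAs.

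The strand miR-17*, from the growth-promoting miR-17-92 cluster, had the same shape but was flagged on 2 of the 3 TEB arrays and so was not tested. TEBs gave 11.5, 11.5 and 9.12 scaled units, ducts -8.27 and -0.35, and stroma -10.3, -14.6 and -5.11. The TEB arrays lay above all others. This amounted to at least 1.93-fold over ducts and at least 1.43-fold over stroma. The strand miR-24-1*, of the miR-23, miR-27 and miR-24 cluster, was likewise flagged on 2 TEB arrays and not tested. Its signals were 13.0, 9.75 and 5.77 scaled units in TEBs and 2.45 and 5.95 in ducts, so that these tissues overlapped. In this strand TEBs were at least 1.13-fold above stroma.

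The strand miR-674* was detected on all 8 arrays. TEBs gave 36.7, 36.1 and 34.2 scaled units, ducts 36.4 and 28.5, and stroma 19.4, 24.7 and 27.1. Every TEB array lay above every stroma array. The log2 difference of TEBs from stroma was 0.60 (1.52-fold, SE 0.156, adjusted p 0.0157), and it turned to -0.13 (adjusted p 0.295) when the background was corrected by normexp. Ducts lay between, and their differences from TEBs (0.14) and from stroma (0.46) did not pass (adjusted p 0.539 and 0.118).

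Of the 16 star strands, 12 differed between TEBs and stroma at an adjusted p under 0.05, of which 2 were higher in TEBs (miR-135a* and miR-674*) and 10 lower. Over all 167 miRNAs tested the share that differed was 64.7%, with 20.4% higher in TEBs and 44.3% lower. The median log2 difference was -1.50 over the 16 star strands and -0.28 over all 167. Over miRNAs detected on all 8 arrays it was -0.29 for the 6 star strands and -0.32 for all 108. In that set 1 star strand was called higher in TEBs and 3 lower, beside 19 and 54 of all 108. Among the 16, arrays of the tissues did not overlap in 2 star strands higher in TEBs and 11 lower, against 23.4% and 48.5% of all 167 tested. Besides miR-378*, the strands lower in TEBs were let-7b*, let-7d*, miR-130b*, miR-18a*, miR-299*, miR-29c*, miR-483*, miR-485* and miR-877*.

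Between TEBs and ducts 5 of the 16 differed, 1 higher in TEBs (miR-135a*) and 4 lower (let-7b*, miR-130b*, miR-299* and miR-29c*). The share among all 167 was 24.6%, with 11.4% higher and 13.2% lower. The split of star strands was 1 higher and 1 lower when arrays were scaled to the 75th percentile of all mouse miRNAs, 2 and 3 after quantile normalization, and 1 and 9 without scaling. Over all 167 the same settings gave 24 higher and 6 lower, 31 and 14, and 12 and 63, so that the whole array moved with the scaling. The median difference was -1.04 for the star strands and -0.10 for all. Arrays did not overlap in 1 star strand higher in TEBs and 11 lower, against 22.2% and 43.1% of all tested. Between ducts and stroma only miR-378* differed, 1 of 16, where 21.6% of all 167 did, 9.58% higher in ducts and 12.0% lower, and without scaling there were 3 higher in ducts and 1 lower, beside 52 and 4 of all 167. Arrays of ducts and stroma did not overlap in 1 star strand higher in ducts and 1 lower, against 19.8% and 22.8% of all tested. The duct comparisons rest on 2 arrays. The calls of miR-130b* and miR-299* against ducts were lost without TEB replicate 2 or duct replicate 1, and without either array 1 star strand passed. The call of let-7b* was lost when any array but TEB replicate 3 was left out, and that of miR-29c* when any but stroma replicates 1 and 2 was.

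The 9 strands lower in TEBs than in stroma, leaving out miR-378*, formed a group with a common profile. The star strand of miR-483, whose hairpin sits in the gene of the growth factor Igf2, was the brightest of them. For miR-483* TEBs gave 17.2, 30.6 and 43.4 scaled units, ducts 97.9 and 59.6, and stroma 74.2, 128 and 81.0. Every TEB array lay below every other array. The log2 differences of TEBs were -1.69 from stroma (SE 0.402, adjusted p 0.0117) and -1.43 from ducts (SE 0.449, adjusted p 0.0550). The partner miR-483 was detected on no array.

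The strand miR-877* comes from a hairpin in an intron of Abcf1, a mirtron that splicing releases without Drosha. TEBs gave 10.7, 18.7 and 31.1 scaled units, ducts 66.9 and 42.1, and stroma 50.8, 89.1 and 60.1. The log2 difference of TEBs from stroma was -1.82 (SE 0.431, adjusted p 0.0117). The partner miR-877 ran the other way, with 19.8, 12.5 and 4.52 scaled units in TEBs and negative signals on every duct and stroma array. It was flagged on 1 TEB array.

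Among the let-7 star strands, let-7b* gave 13.4, 20.4 and 28.4 scaled units in TEBs, 66.9 and 40.0 in ducts, and 47.8, 78.9 and 53.5 in stroma. For let-7d* the TEB values were 7.27, 18 and 25.4, the duct values 75.5 and 43.2, and the stroma values 51.5, 90.3 and 55.4. In both strands every TEB array lay below all the others. The log2 differences from stroma were -1.56 for let-7b* (SE 0.35, adjusted p 0.00913) and -2.09 for let-7d* (SE 0.507, adjusted p 0.0121), and those from ducts -1.38 (adjusted p 0.0466) and -1.94 (adjusted p 0.0505). The let-7 partners, which hold back growth and mark differentiated cells, gave smaller differences. The signal of let-7b differed by -0.16 between TEBs and stroma (adjusted p 0.0866), and that of let-7d by -0.30 (adjusted p 0.0185). The related let-7f* was detected on 3 arrays and let-7g* on 1.

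The strand miR-18a* went against its partner. TEBs gave 1.83, 8.54 and 10.9 scaled units of miR-18a*, ducts 36.7 and 19.6, and stroma 20.5, 40.2 and 30.5. It was flagged on no TEB array and on every other array. With weaker TEB signals raised to the weakest detected signal of their array, stroma lay 5.07-fold and ducts 4.64-fold above TEBs in log2 means. These values are close to the fitted folds of 5.27 and 4.82 and take no account of the spread between arrays. The partner miR-18a gave 64.0, 88.7 and 80.4 scaled units in TEBs, 9.89 and 16.4 in ducts, and 2.54, -2.55 and 2.12 in stroma, where it was not detected. TEBs were thus at least 10.3-fold above stroma in miR-18a. The fitted log2 difference of miR-18a* from stroma was -2.40 (adjusted p 0.0223), and the call was lost without stroma replicate 2 or 3. Against ducts it was -2.27 (adjusted p 0.0657), and within rows of the slide it was -3.21 and -0.84.

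The strands of the Dlk1-Dio3 region were miR-485* and miR-299*. For miR-485* TEBs gave 1.98, 10.7 and 15.6 scaled units, ducts 56.1 and 28.3, and stroma 37.2, 64.6 and 36.9. No TEB array was flagged. TEB signals were raised to the weakest detected signal of their array where lower. Stroma then lay 6.37-fold and ducts 5.69-fold above TEBs in the means of log2 values. These values are close to the fitted folds of 6.46 and 5.77 and take no account of the spread between arrays. The log2 difference from stroma was -2.69 (adjusted p 0.0218), and the call was lost without stroma replicate 2. For miR-299* TEBs gave 20.8, 27 and 32.4 scaled units, ducts 57.9 and 54.2, and stroma 47.6, 57.9 and 58.1. All TEB arrays lay below the others, with log2 differences of -1.05 from stroma (SE 0.179, adjusted p 0.00319) and -1.09 from ducts (SE 0.200, adjusted p 0.0148). The partners miR-485 and miR-299 were detected on no array.

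The last of the group were miR-130b* and miR-29c*. For miR-130b* TEBs gave 4.31, 6.0 and 9.22 scaled units, ducts 28.7 and 16.6, and stroma 21.1, 32.8 and 22.6. No TEB array and 2 of the 3 stroma arrays were flagged. Its TEB signals all lay above the weakest detected signal of their array, so that the lower bound of 3.52-fold for ducts over TEBs is the fitted fold itself, with log2 differences of TEBs of -1.81 from ducts (adjusted p 0.0206) and -2.01 from stroma (adjusted p 0.00337). For miR-29c*, whose partner holds down collagen genes, TEBs gave 9.12, 12.9 and 12.9 scaled units, ducts 26.1 and 20, and stroma 25.1, 41.9 and 28.8. Here too the bound is the fitted fold, with stroma 2.71-fold above TEBs (log2 difference -1.44, adjusted p 0.00319). The partner miR-29c was also lower in TEBs than in stroma, with a log2 difference of -0.80 (adjusted p 0.00244). Since miR-130b* entered the test through ducts alone and miR-29c* through stroma alone, their calls are a description.

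**Figure D3:**
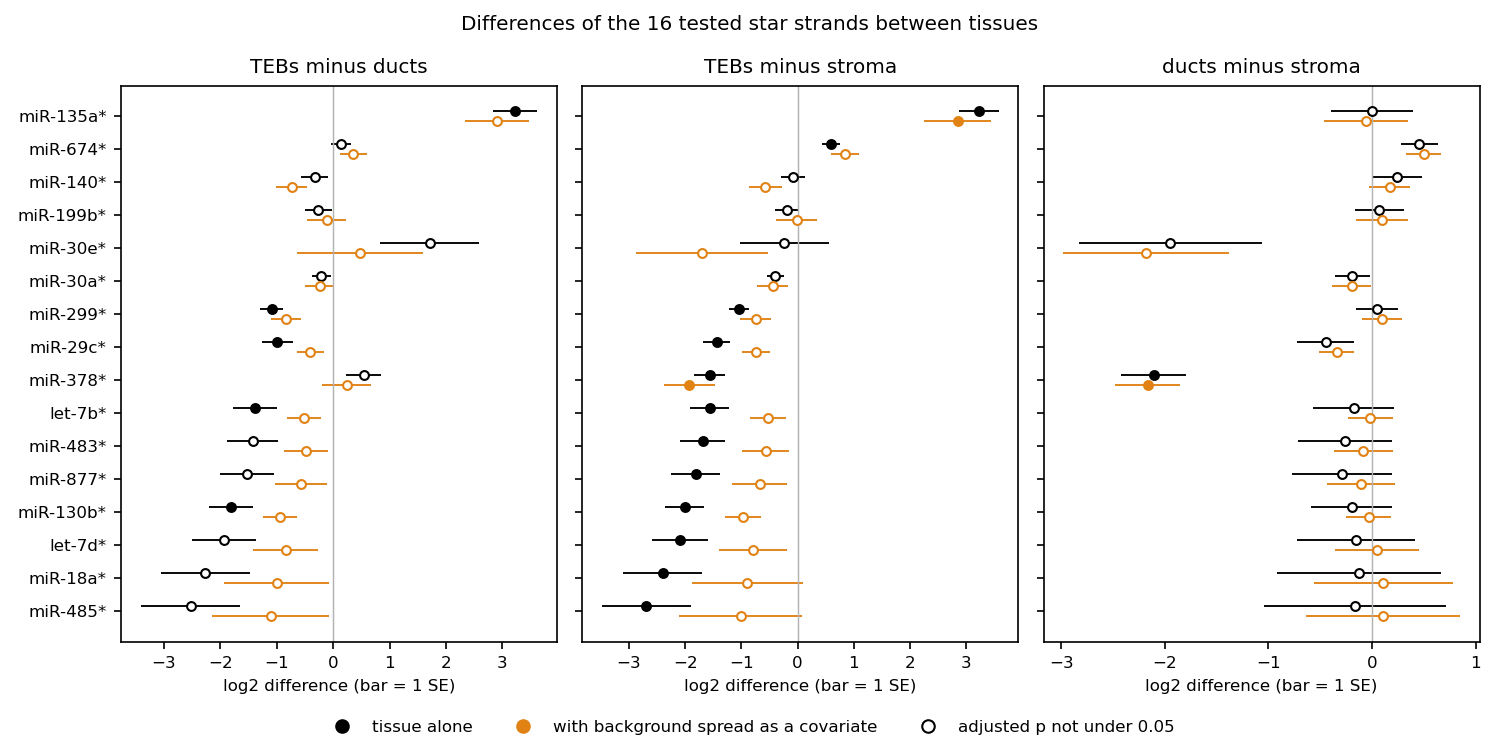
Log2 difference between tissues of the 16 tested star strands, with bars of 1 SE, from limma with tissue alone (black) and with the background spread of the array added as a covariate (orange). Filled circles passed an adjusted p of 0.05. With the covariate 0, 2 and 1 star strands passed in the 3 comparisons against 5, 12 and 1 without it.

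The profile of that group was shared with a property of the arrays. The background spread of an array was taken as the distance from the 10th to the 90th percentile of the scaled signals of the 408 mouse miRNAs that no array detected. It was 10.0, 12.2 and 16.2 scaled units on the TEB arrays, 32.7 and 18.7 on the duct arrays, and 23.9, 35.1 and 25.2 on the stroma arrays. The TEB arrays had the lowest spreads, and within each tissue the array with the widest spread was TEB replicate 3, duct replicate 1 and stroma replicate 2. Within every tissue, 7 of the 16 tested star strands (43.8%) ranked the arrays in that same order, namely let-7b*, let-7d*, miR-130b*, miR-18a*, miR-29c*, miR-483* and miR-877*. Of all 167 tested miRNAs 15.6% did so, and of the 151 that were not star strands 12.6%. With let-7f* and miR-191*, which were not tested, 9 of the 22 detected star strands (40.9%) did so. The arrays of miR-485* and miR-299* ranked otherwise in stroma alone.

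Of 4 probes for viral miRNAs that were flagged on any array, 3 showed the same order. The probe for mghv-miR-M1-2, of a mouse herpesvirus, was flagged on all 8 arrays. It gave 33.2, 39.4 and 56.5 scaled units in TEBs, 115 and 62.7 in ducts, and 83.3, 125.8 and 86.2 in stroma. Probes mghv-miR-M1-7-3p and mghv-miR-M1-9 were flagged on 5 and 3 arrays in the same order of signal. TEB arrays lay below all other arrays in each of these 3 probes, as in the star strands of the group. The fourth, mcmv-miR-M23-1-5p, did not follow the order. It gave 4.88, 5.03 and -0.26 scaled units in TEBs and lower, negative signals on the other arrays, and was flagged on 2. Its TEB arrays thus lay above all others, as in miR-135a*, miR-17* and the partner miR-877. The part of the background in that shape was not tested.

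**Figure D4:**
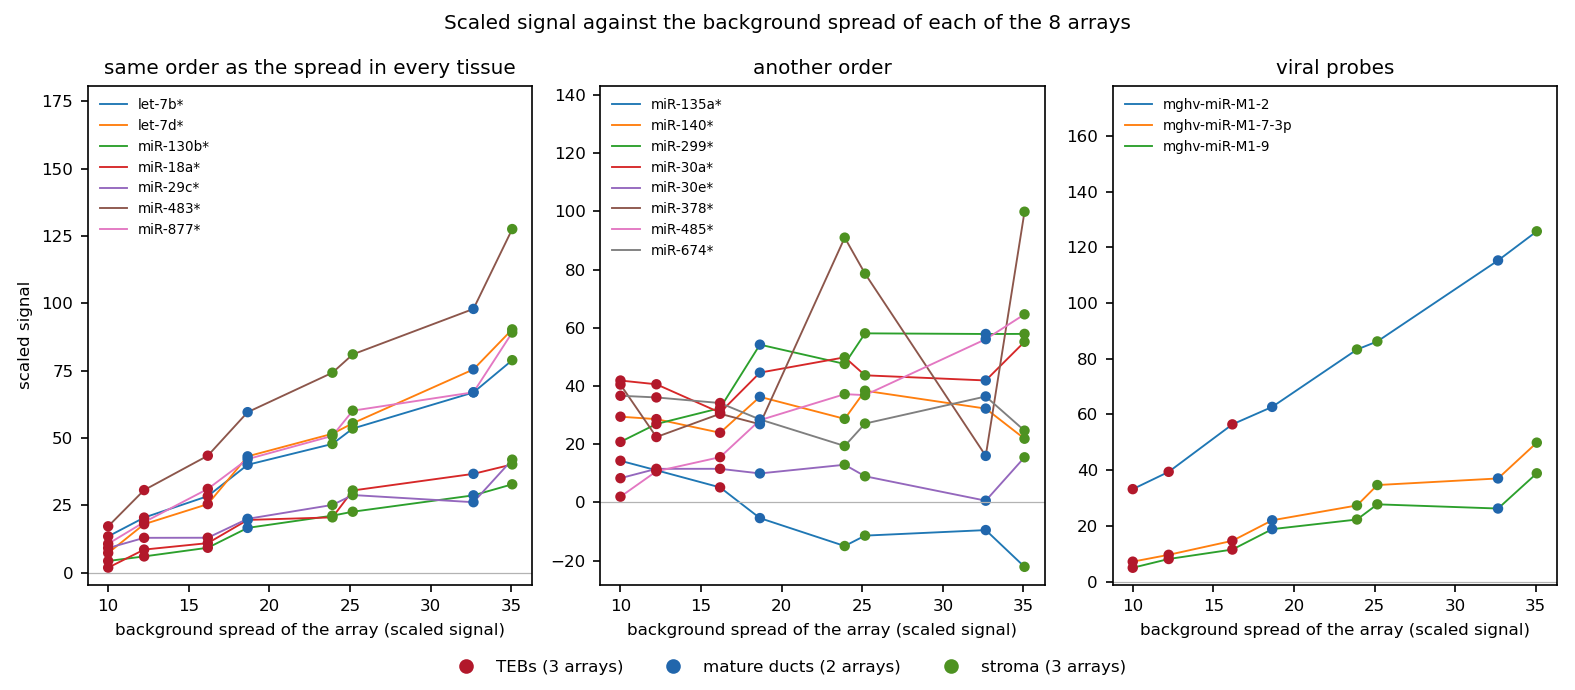
Scaled signal against the background spread of the array, for the 7 tested star strands whose arrays ranked as the spread within every tissue (left), for 8 other tested star strands without miR-199b* (middle), and for the 3 viral probes of the same order (right). Each point is an array, coloured by tissue, and lines join the arrays in order of spread. Within each tissue the signals in the left and right panels climb with the spread, while those in the middle panel, such as miR-378* and miR-674*, do not follow it in common.

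With the background spread as a covariate, 0 star strands passed between TEBs and ducts, 2 between TEBs and stroma (miR-135a* and miR-378*) and 1 between ducts and stroma (miR-378*). Over all 167 miRNAs 2.4%, 28.7% and 25.7% passed. For let-7b* the difference between TEBs and stroma went from -1.56 to -0.53 (adjusted p 0.282), for miR-483* from -1.69 to -0.57 (adjusted p 0.364), and for miR-130b* from -2.01 to -0.97 (adjusted p 0.0680). For miR-378* it went from -1.56 to -1.93 (adjusted p 0.0301). The median over the 16 went from -1.50 to -0.71, and over all 167 from -0.28 to -0.35. All TEB arrays had a narrower spread than any other array, so this fit separates tissue from spread only through differences within tissues. The part of the background in the low TEB signals of the group was not tested beyond this fit.

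The strands that did not pass in any comparison were miR-140*, miR-199b*, miR-30a* and miR-30e*. For miR-199b*, the brightest star strand, the signal was 906 to 1486 scaled units in TEBs, 1446 and 1532 in ducts, and 1220 to 1534 in stroma. The arm that the name miR-199b* marks was not settled, and RefSeq gives the 3′ arm of its hairpin the same sequence as miR-199a-3p, a miRNA of connective tissue. For miR-140*, known from cartilage, the signal was 24 to 29.5 scaled units in TEBs, 32.2 and 36.3 in ducts, and 21.9 to 38.4 in stroma. For miR-30a* it was 30.9 to 41.9 in TEBs, 41.9 and 44.6 in ducts, and 43.7 to 55.2 in stroma, a log2 difference of -0.40 between TEBs and stroma (adjusted p 0.0566). For miR-30e* it was 8.34 to 11.6, 0.60 and 9.97, and 8.99 to 15.5, with 2 arrays not flagged. The tissues overlapped in miR-199b* and miR-30e*, while the TEB arrays of miR-140* lay just below those of ducts and the TEB arrays of miR-30a* just below those of stroma.

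**Figure D5:**
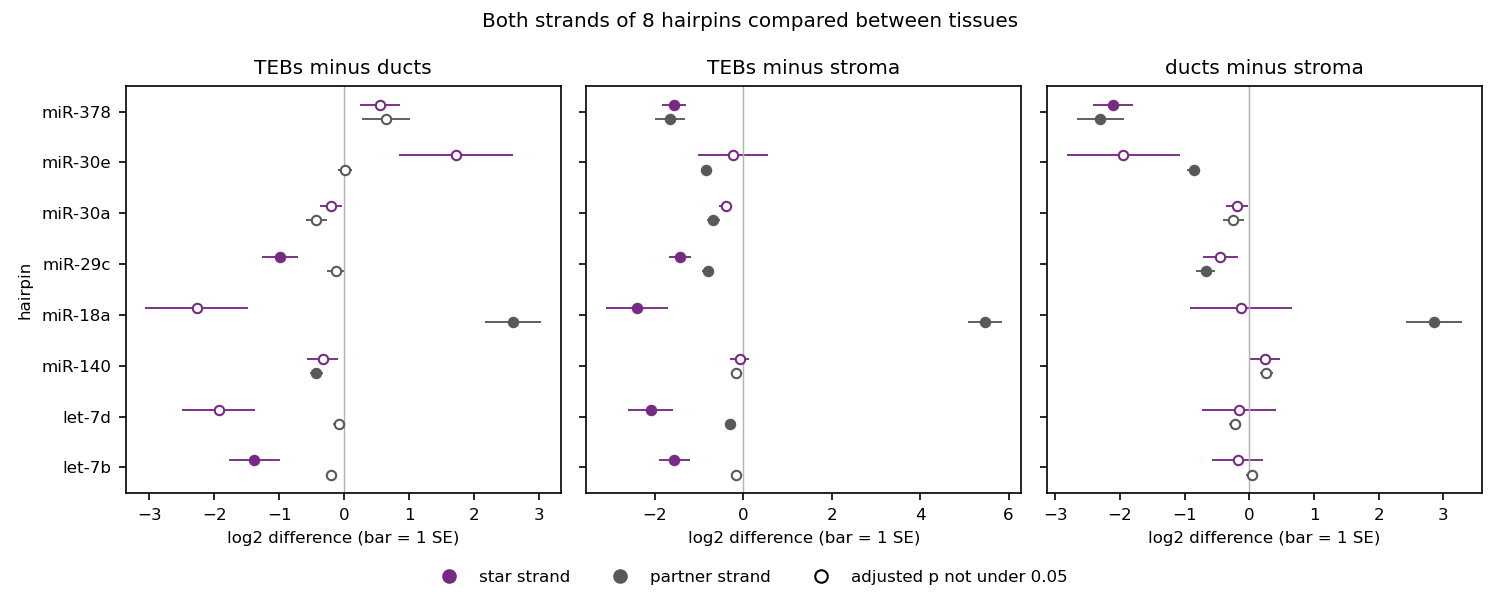
Log2 difference between tissues of the star strand (purple) and of the partner strand (grey) of 8 hairpins, with bars of 1 SE and filled circles at an adjusted p under 0.05. Both strands of miR-378 lie together in every comparison, while those of miR-18a lie on opposite sides of 0 when TEBs are compared with ducts or stroma.

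Whether the strands of a hairpin change by different amounts was asked of the log2 ratio of star strand to partner within each array. There the scaling drops out, except where a signal was set to the floor. Both strands were detected on all 8 arrays in 3 hairpins, of which 2 have a star strand, miR-140 and miR-30a. Neither ratio differed between any tissues, with 0 star pairs called where 0.0%, 33.3% and 33.3% of the 3 hairpins were called between TEBs and ducts, TEBs and stroma, and ducts and stroma. The ratio of miR-140* to miR-140 differed by 0.11 (SE 0.279), 0.08 (SE 0.250) and -0.02 (SE 0.279) in the same comparisons. That of miR-30a* to miR-30a differed by 0.22 (SE 0.141), 0.28 (SE 0.126) and 0.06 (SE 0.141), and the adjusted p between TEBs and stroma was 0.0947.

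A wider set took in the 10 hairpins with each strand detected throughout some tissue. In it 10.0%, 30.0% and 0.0% of the ratios were called in the 3 comparisons, all of them of star strands. The ratio of miR-18a* to miR-18a was lower in TEBs, with log2 differences of -4.86 from ducts (SE 0.969, adjusted p 0.0221) and -7.86 from stroma (SE 0.867, adjusted p 0.000855), sizes that rest partly on the floor. That of let-7b* to let-7b was also lower in TEBs than in stroma (-1.40, adjusted p 0.0403), as was that of let-7d* to let-7d (-1.79, adjusted p 0.0424). All of these star strands entered the set through ducts and stroma and not through TEBs. That entry favours a low ratio in TEBs, so these calls are a description. Where the set was limited to hairpins with both strands detected on every array of the tissues compared, 0 star pairs were called, against 0.0%, 25% and 0.0% of the hairpins. All 3 of the star strands called in the wider set are among the 7 that ranked the arrays as the background spread did.

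The 6 strands that were detected but not tested were let-7f* on 3 arrays, miR-17* and miR-24-1* on 2, and let-7g*, miR-191* and miR-30c-2* on 1. Their scaled signals went no higher than 39.0 units. On the arrays of ducts and stroma let-7f* gave 18.6 to 39.0 units, against 8.5 to 15.3 in TEBs, without overlap. The strand miR-191* gave 16.3 to 24.1 units in stroma and 8.60 to 13.5 in the epithelial fractions. Both are among the 9 that ranked the arrays as the background spread did.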

How the data were processed

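Total RNA of micro-dissected TEBs (3 arrays), mature ducts (2) and stroma (3) was hybridised to single-colour Agilent mouse miRNA arrays, and the labelled tissue gave each sample its group. Scanner intensities per miRNA, with an error and a detection flag, were deposited by the authors with the background subtracted and no normalization between arrays, from Agilent Feature Extraction 9.5.3 per the submitters' processing notes. The deposited value table of the series holds log2 values that appear quantile normalized, since each column has the same maximum (16.5) and the same 75th percentile, with medians of 0.139 to 1.48. It was used as an alternative alone. The files give no counts, so the number of arrays limits the precision. On each array 340 to 391 mouse miRNAs were below 0.

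Control and 39 viral probes were left out of the tests. Intensities were scaled to the 75th percentile of the 108 mouse miRNAs detected on all 8 arrays, with 1 as the floor, and the log2 scale was used to fit the 167 miRNAs that some tissue showed as detected on all of its arrays, using limma 3.58.1 (lmFit, contrasts.fit, eBayes) in R 4.3.3, with Benjamini-Hochberg adjustment within each comparison at 0.05. The ratio of strands was fitted in the same way. Every tested star strand was named, with its partner. The fits were tested on simulated data. Members were taken by name, but star strands as the subject, the lists and the comparisons were chosen with earlier results of these data known. Alternatives were other scalings, floors, background corrections, filters, covariates and tests, and leaving out each array. The covariate for background spread was added after seeing the data.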

Additional observations from a re-analysis of the deposited data

How the results depend on the processing

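The number of star strands that differed between TEBs and stroma was 12, and it was 10 to 16 under all settings other than a filter for detection on all 8 arrays, which left 6 strands in the test and 4 calls, and the background spread as a covariate, which left 2. Between TEBs and ducts the count was 5. It became 2 with the 75th percentile of all mouse miRNAs, with the floor at the weakest detected signal, with detection on all 8 arrays, with no detection filter, with the replicate block and with the 2 tissues alone. It became 10 without scaling, 8 with 16 added in place of the floor, 1 with normexp, 3 with the slide row as a covariate, and 0 with the adjusted t-test of the methods (4 at an unadjusted p under 0.05) and with the background spread. Between ducts and stroma the count was 1. It became 2 with quantile normalization, with 16 added and with the value table of the series, 4 without scaling, 5 with normexp and 0 with detection on all 8 arrays. Leaving out each array gave 1 to 8, 10 to 13 and 1 to 2 in the 3 comparisons, where the lowest came without TEB replicate 2 or duct replicate 1, without stroma replicate 2, and without most arrays, and the highest without TEB replicates 3 and 1 and duct replicate 2. A lone duct array was assumed to vary like the other tissues.

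Star-to-partner ratios had 0 calls in each comparison. They had 1 between TEBs and ducts with quantile normalization, normexp or the value table, and 1 between TEBs and stroma with quantile normalization, 16 added or the value table. In the set of 10 hairpins they had 1 and 3. Without each array they had 0 to 0, 0 to 1 and 0 to 0, the call coming without TEB replicate 3. Under detection on all 8 arrays 6 star strands were testable in place of 16, and leaving out each array gave 16 to 18 tested and 21 to 22 detected.

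Of the 18 differences called for single star strands, 5 kept call and direction under every alternative that tested them, other than the background spread. They were those of let-7b*, miR-130b* and miR-29c* between TEBs and stroma, and both of miR-378*, which held with the background spread too. The filter for detection on every array left out these strands, so it could not test the calls. Apart from that of miR-378* between TEBs and stroma, these calls are a description, by how the strands entered the test. The difference of miR-674* between TEBs and stroma turned to -0.13 with normexp. That of miR-135a* between ducts and stroma, which is 0 at the floor, was 2.31 with 16 added and -0.30 with normexp. In all, 32 uncalled differences of star strands or of strand ratios changed sign somewhere, that of miR-135a* among them. Scaling moved the median of all 167 miRNAs, from -0.10 to 0.45 with the 75th percentile of all mouse miRNAs and to -0.47 without scaling between TEBs and ducts, from -0.28 to 0.12 and -0.03 between TEBs and stroma, and from -0.09 to -0.25 and 0.50 between ducts and stroma.

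The labels do not say whether the replicate numbers pair the samples. The deviations from tissue means of 7 array pairs that share a number correlated at -0.10 on average (-0.51 to 0.36). Those of 14 other pairs correlated at 0.05 (-0.50 to 0.51). The deviations of the 2 duct arrays mirror each other, so these correlations cannot settle the pairing. With the replicate block the counts were 2, 13 and 1. Weak signals near the background limit the comparison of most star strands.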
